A study of Mus musculus with 15 samples.

Results

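Type I interferon and antiviral genes were followed in 34 named genes, chosen from known interferon-stimulated genes and matched by Ensembl gene identifier to mouse symbols. These genes, and the other gene lists below, were chosen with earlier results of these data known. Counts of genes passing in them are thus not independent of that choice. All 34 had reads and passed the filter on low counts, among 39179 gene rows in the deposited tables and 14300 genes tested. That filter took all 5 groups together, and some of the 34 passed it through their level in IR+Gli1. With 2 groups alone, 30 of the 34 passed it for IR with NT and for IR+GFP with IR. For IR+Shh with IR+GFP 32 passed it, and all 34 did where IR+Gli1 was included. The genes were read as 5 signalling genes, 7 RNA sensors with their partners, and 22 effectors. The study sequenced total RNA of the submandibular gland, a salivary gland, of adult male C57BL/6 mice, with 3 libraries in each of 5 groups. Glands labelled IR+Shh, IR+Gli1 and IR+GFP were taken 7 days after local irradiation and received a transfer of Shh, Gli1 or GFP into the gland. Glands labelled IR were taken 7 days after irradiation with no transfer, and NT glands had no treatment; the IR and NT glands are labelled wild type. Shh starts Hedgehog signalling as a secreted protein, Gli1 is a transcription factor at the end of that pathway, and GFP is a fluorescent protein. The labels give neither the vector nor the species of the transferred genes, neither the radiation dose nor the age in weeks, and do not say whether libraries came from separate animals, so a p-value here reflects the spread among these samples, which may be technical.

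Reads assigned to genes ranged from 18205941 to 41064723 per library. In each group, the counts of 1 pair of libraries differed by less than counting noise would give, so each pair was counted as 1 sample: IR+Shh 1 and 3, IR+Gli1 1 and 2, IR+GFP 1 and 2, IR 1 and 2, and NT 2 and 3. This left 2 samples in each group, n = 2, named here by their library numbers (IR+Gli1 1+2 and IR+Gli1 3). Libraries IR+Gli1 3 and IR+GFP 3 stood apart by their share of reads with several alignments, 7.53% and 8.22%, against 2.89% to 4.79% in the others. Sample NT 2+3 held sublingual gland markers, such as Muc19, at a summed 34610 CPM, against 190 CPM in IR+GFP 1+2 and at most 6.77 CPM in the other 8 samples. Gli1 itself was at 2.69 and 4.24 CPM in IR+Shh, at 0.540 and 0.672 CPM in the samples labelled IR+Gli1 and at 0.514 to 0.768 CPM in the other groups, and Shh had 0 reads throughout. Per total gene reads, with no TMM factor, Gli1 was at 0.927 and 0.878 CPM in IR+Gli1, at 2.53 and 4.21 CPM in IR+Shh and at 0.467 to 0.664 CPM in the other groups, so its place in IR+Gli1 depends on the scaling. These reads do not check the label, and the name IR+Gli1 is used as the label gives it.

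Type I interferons are secreted proteins that bind the receptor formed by Ifnar1 and Ifnar2, which activates the kinases Jak1 and Tyk2. These phosphorylate Stat2, which joins Irf9 in a complex that enters the nucleus and binds interferon-stimulated response elements (ISRE) in target promoters. The induced genes include more of the signalling proteins, cytosolic sensors of foreign RNA, and effectors that block steps of virus growth. DNA in the cytosol, which radiation damage can release, is known to start interferon production through sensors of its own.

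Promoter windows of RefSeq genes (build GRCm38.p6, from 250 bases before to 50 bases after the start site) were found by symbol for 27 of the 34 genes. The ISRE was searched as GAAA, any 2 bases, GAAA, on both strands, with overlapping matches allowed. It was present in 14 of these 27 genes (51.9%), against 1079 of 27025 RefSeq genes (3.99%) with a window of the same length. Before the start site it was present in 10 of the 27, namely 9 of 18 effectors, 1 of 4 signalling genes and 0 of 5 sensors, and in 3.46% of all genes. The sensors Ddx58, Ifih1 and Eif2ak2 held it after the start site. The shorter motif TTCNNNGAA, known from genes that respond to interferon gamma, was present in 6 of the 27 genes (22.2%) and in 9.55% of all. These are matches of letters, and no binding was measured.

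The stretches below are 60 bases long and end before the start site, with ISRE matches in capitals. Bst2 and Stat2 are shown as the effector of highest level per length and the signalling gene that hold a match. Isg15, Ifit1 and Ifit3, chosen after their values were seen, show how matches repeat in single promoters.
Bst2: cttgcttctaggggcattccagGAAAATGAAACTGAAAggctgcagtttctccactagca
Stat2: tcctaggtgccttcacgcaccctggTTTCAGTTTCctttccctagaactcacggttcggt
Isg15: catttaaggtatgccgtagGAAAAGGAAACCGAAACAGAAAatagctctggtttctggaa
Ifit1: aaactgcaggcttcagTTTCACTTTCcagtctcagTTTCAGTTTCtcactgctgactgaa
Ifit3: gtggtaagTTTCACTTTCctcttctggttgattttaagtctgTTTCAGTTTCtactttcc
They lie at chr8:71537565-71537624 (minus strand), chr10:128270251-128270310 (plus strand), chr4:156200856-156200915 (minus strand), chr19:34640769-34640828 (plus strand) and chr19:34583365-34583424 (plus strand), and are written 5′ to 3′ on the strand of the gene. Isg15 holds 3 overlapping matches, Bst2 holds 2 overlapping ones, and Ifit1 and Ifit3 hold 2 separate ones each on the antisense strand.

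In IR+Gli1 glands all 34 genes rose over IR+GFP glands, by 2.30-fold or more. Together they summed to 2446 and 1347 CPM (counts scaled to a common library size with TMM) in IR+Gli1, against 238 and 288 CPM in IR+GFP. The median log2 fold change was 3.83, and single genes lay between 1.2 and 7.86. All 34 passed edgeR's quasi-likelihood test, with Benjamini-Hochberg adjusted p of 0.00130 to 0.0394, where 8.23% of all genes tested passed upward, 5.71% passed downward and the median of all genes was 0.01. In all 34 both IR+Gli1 samples lay above both IR+GFP samples, which was so for 28.9% of all genes tested. In these whole glands, more cells of a type and more RNA per cell cannot be told apart.

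**Figure D1:**
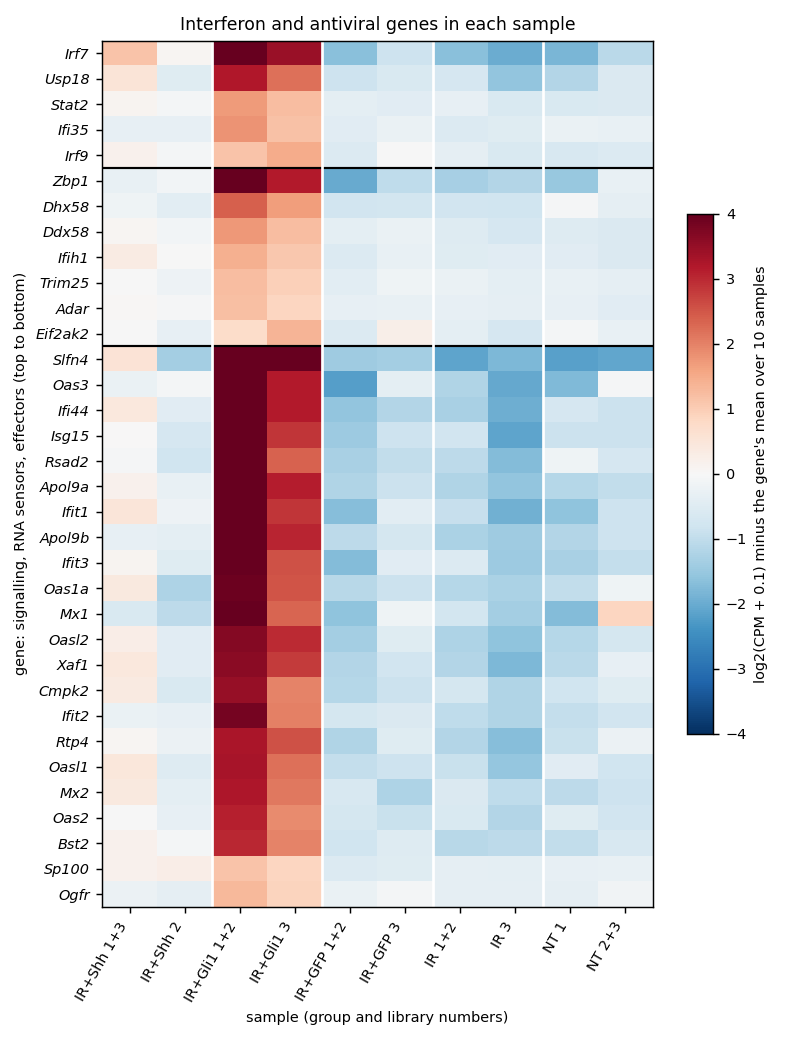
Level of the 34 genes in each of the 10 samples, as log2(CPM + 0.1) minus the gene's mean over the samples, with rows grouped as signalling genes, RNA sensors and effectors and colours cut at 4 in either direction. The columns IR+Gli1 1+2 and IR+Gli1 3 are red in every row, and the columns of IR+GFP, IR and NT are mostly blue.

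The 5 signalling genes had a median log2 fold change of 1.91 in IR+Gli1 over IR+GFP. Irf7, the transcription factor that amplifies interferon production, changed most (ENSMUSG00000025498, chromosome 7, 141262706 to 141266481). It stood at 507 and 263 CPM in IR+Gli1, against 7.46 and 13.5 CPM in IR+GFP (37.0-fold, log2 5.21 ± 0.60 SE, edgeR adjusted p = 0.00553). Usp18, which removes Isg15 from proteins and dampens signalling at the interferon receptor, was at 48.4 and 24.5 CPM in IR+Gli1, against 2.90 and 3.38 CPM in IR+GFP (11.5-fold). Both genes were low in both IR+GFP samples, with a wide gap to IR+Gli1. Stat2 had 91.4 and 67.0 CPM in IR+Gli1, against 21.3 and 20.8 CPM in IR+GFP (3.76-fold). Irf9 had 54.1 and 67.4 CPM, against 16.4 and 23.9 CPM (3.02-fold). Ifi35, which modulates sensor signalling, had 35.4 and 22.7 CPM, against 7.34 and 8.43 CPM (3.68-fold). Stat2 and Irf9, the partners that bind the ISRE together, thus showed smaller changes than Irf7 and Usp18. Exons of Irf7 overlap those of Phrf1 on the other strand, and the strand setting of the counting is not given in the sources used here. Exons of Irf9 overlap those of Rnf31 on the same strand, where no strand setting can tell the reads apart. The counts of Irf7 and Irf9 are thus less certain.

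Among the 7 sensors and partners the median log2 fold change was 1.67. Zbp1, a sensor of left-handed nucleic acid helices that can start cell death, had the largest one: 46.9 and 17.3 CPM in IR+Gli1, against 0.384 and 0.861 CPM in IR+GFP (48.7-fold, log2 5.60 ± 0.66, edgeR adjusted p = 0.00408). Dhx58, known as LGP2, was at 37.8 and 22.6 CPM, against 4.14 and 4.18 CPM (7.17-fold). These 2 were the sensors whose change exceeded a log2 of 2. Ddx58, which encodes RIG-I and binds short RNA ends, had 48.7 and 34.4 CPM in IR+Gli1, against 11.2 and 12.2 CPM in IR+GFP (3.55-fold). Ifih1, which encodes MDA5 and binds long double-stranded RNA, had 59.0 and 47.1 CPM, against 15.3 and 18.2 CPM (3.17-fold). Trim25, the ubiquitin ligase that helps RIG-I to signal, had 78.9 and 64.2 CPM, against 25.0 and 29.3 CPM (2.64-fold). In these 3 genes the lower IR+Gli1 sample lay clearly above the higher IR+GFP sample. Adar, an enzyme that edits adenosine in double-stranded RNA, had 79.0 and 62.8 CPM in IR+Gli1, against 27.3 and 28.0 CPM in IR+GFP (2.56-fold). Eif2ak2, which encodes the kinase PKR that halts translation, had the smallest change of all 34, with 20.3 and 31.0 CPM, against 8.23 and 14.1 CPM (2.30-fold, adjusted p = 0.0267 by edgeR). Eif2ak2 and Irf9 were also the 2 genes that were lower in IR+Gli1 1+2 than in IR+Gli1 3.

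The 22 effectors had a median log2 fold change of 4.28 in IR+Gli1 over IR+GFP. Slfn4, a Schlafen gene of myeloid cells (ENSMUSG00000000204, chromosome 11, 83175186 to 83190216), had the largest change. Its level was 95.6 and 18.7 CPM in IR+Gli1, against 0.171 and 0.185 CPM in IR+GFP, where it rested on 7 reads in all (log2 7.86 ± 1.18, edgeR adjusted p = 0.0114). The 2 IR+Gli1 samples differed 5.11-fold in this gene. Isg15, a small protein joined to other proteins like ubiquitin (ENSMUSG00000035692, chromosome 4, 156199424 to 156200818), had 92.3 and 26.7 CPM, against 1.24 and 1.97 CPM (36.6-fold, log2 5.2 ± 0.76). Bst2, known as tetherin because it holds budding viruses at the cell surface (ENSMUSG00000046718, chromosome 8, 71534255 to 71537456), had 134 and 65.9 CPM, against 9.38 and 11.6 CPM (9.57-fold, log2 3.26 ± 0.33). Of the stretches printed above, those of Isg15 and Bst2 each hold overlapping ISRE matches.

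The Ifit genes encode proteins that bind foreign 5′ RNA ends, and 3 of them lie next to each other on chromosome 19. Ifit1 was at 82.0 and 30.5 CPM in IR+Gli1, against 1.19 and 3.08 CPM in IR+GFP (26.7-fold). Ifit3 was at 108 and 33.0 CPM, against 1.62 and 4.06 CPM (25.2-fold), and Ifit2 at 49.0 and 13.8 CPM, against 2.0 and 2.21 CPM (14.6-fold). In all 3 the IR+Gli1 samples differed between each other by more than the IR+GFP samples did on the CPM scale, and the groups did not overlap. The Oas enzymes make the second messenger that activates an RNA-cutting enzyme, and Oas2, Oas3 and Oas1a form a cluster on chromosome 5. Oas3 had 23.8 and 7.51 CPM in IR+Gli1, against 0.0853 and 0.554 CPM in IR+GFP (43.9-fold). Oas1a had 31.3 and 11.8 CPM, against 0.853 and 1.05 CPM (21.5-fold), and Oas2 had 13.2 and 5.69 CPM, against 0.853 and 0.738 CPM (11.0-fold). The related Oasl2 and Oasl1 lie side by side elsewhere on that chromosome. Oasl2 reached 203 and 126 CPM in IR+Gli1, against 6.10 and 11.2 CPM in IR+GFP (19.2-fold), and Oasl1 40.7 and 18.9 CPM, against 2.05 and 2.21 CPM (13.7-fold). In none of these 5 genes did the groups overlap.

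Rsad2, which encodes viperin, and Cmpk2, a nucleotide kinase, lie head to head on chromosome 12 with 12751 bases between them. Rsad2 had 60.04 and 14.4 CPM in IR+Gli1, against 1.07 and 1.35 CPM in IR+GFP (29.6-fold), and Cmpk2 had 30.2 and 10.7 CPM, against 1.15 and 1.41 CPM (15.4-fold). The GTPases Mx1 and Mx2, which trap virus particles, are neighbours on chromosome 16. In C57BL/6 mice the Mx1 gene is known to be defective, and Mx2 is annotated as a polymorphic pseudogene. Mx1 had 22.7 and 6.75 CPM in IR+Gli1, against 0.341 and 1.11 CPM in IR+GFP (19.7-fold, edgeR adjusted p = 0.0394, the highest of the 34). With a replicate block for sample 3 of both groups Mx1 did not pass (edgeR adjusted p = 0.0550), and the other 33 genes did. Mx2 had 8.86 and 4.03 CPM, against 0.512 and 0.308 CPM (13.3-fold). Both genes were higher in each IR+Gli1 sample than in either IR+GFP sample.

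The other effectors comprised genes with large changes and 2, Sp100 and Ogfr, with small ones. Ifi44 had 64.7 and 28.2 CPM in IR+Gli1, against 0.938 and 1.29 CPM in IR+GFP (40.1-fold). Rtp4, which restrains RNA viruses, had 43.6 and 26.2 CPM, against 1.88 and 3.14 CPM (13.9-fold), and Xaf1, a promoter of cell death, had 36.5 and 20.7 CPM, against 1.24 and 1.66 CPM (19.1-fold). All 3 were several times higher in each IR+Gli1 sample than in either IR+GFP sample. Apol9a and Apol9b, apolipoprotein L genes, are near-identical copies: their windows before the start share a run of 228 bases. Reads with several alignments were not counted, so each shows only what could be told apart. Apol9a had 9.85 and 5.49 CPM in IR+Gli1, against 0.171 and 0.246 CPM in IR+GFP (28.3-fold), and Apol9b had 9.46 and 4.54 CPM, against 0.171 and 0.246 CPM (25.8-fold). Sp100, a scaffold of nuclear bodies, had 114 and 94.2 CPM, against 35.5 and 36.9 CPM (2.88-fold, log2 1.53 ± 0.11). Ogfr, the opioid growth factor receptor, had 65.9 and 49.6 CPM, against 22.3 and 25.2 CPM (2.44-fold).

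The 34 genes divided into 10 with a log2 fold change under 2 and 24 from 2.84 upward. The 10 were 3 of 5 signalling genes, 5 of 7 sensors and 2 of 22 effectors, and their means in IR+GFP, not corrected for gene length, were 7.88 to 36.2 CPM. The 24 had means of 0.178 to 10.5 CPM in IR+GFP, with a median of 1.37 CPM, against 20.6 CPM in the 10. Irf7, Bst2 and Oasl2 combined a mean above 8 CPM in IR+GFP with a log2 fold change above 3. This division was made after the values were seen and is given as a description. The IR+GFP level is also the base of the fold change, so the 2 measures are not independent.

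**Figure D2:**
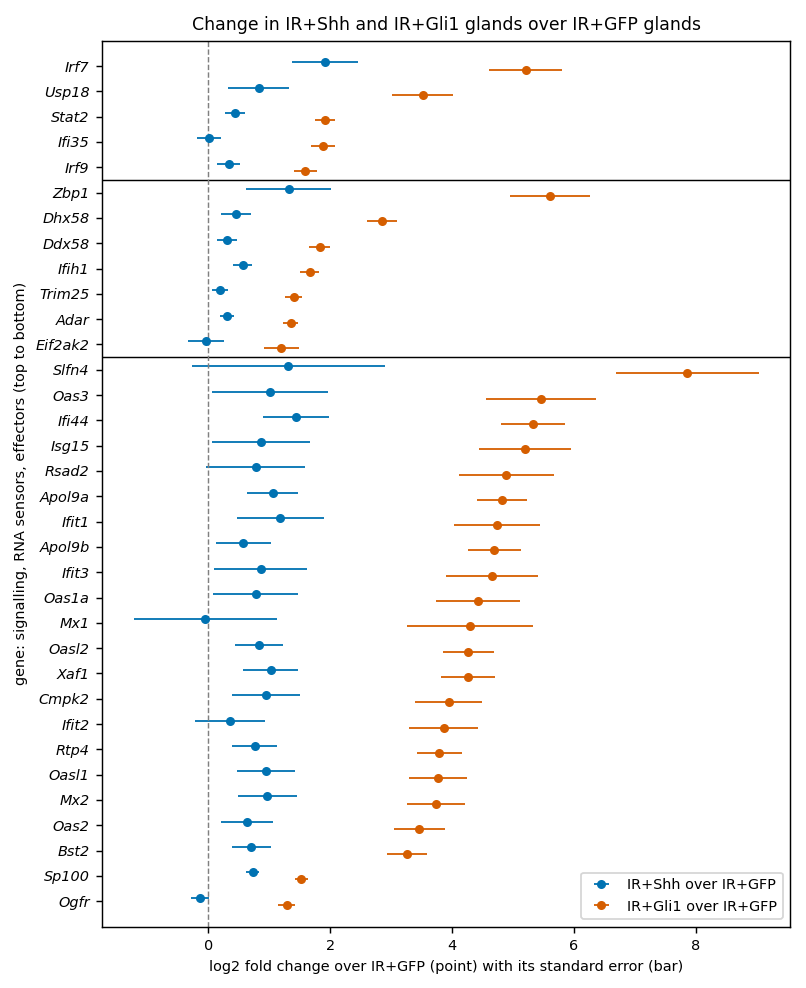
Log2 fold change of each of the 34 genes over IR+GFP in IR+Shh and in IR+Gli1, with the standard error of the fit, in the blocks signalling genes, RNA sensors and effectors. The IR+Gli1 points lie between 1.2 and 7.86 and the IR+Shh points between -0.14 and 1.92, and both share the IR+GFP samples.

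The order of levels per kilobase of exon also differed between groups. In IR+Gli1 the first 5 were Bst2 (111 CPM per kb), Irf7 (102), Isg15 (78.7), Ifit3 (40.3) and Oasl2 (25.8). In IR+GFP they were Bst2 (11.6 CPM per kb), Ogfr (9.21), Sp100 (4.79), Trim25 (4.72) and Ifi35 (4.56), and in NT the same 5 genes led, with Bst2 at 10.4 CPM per kb. In IR+Shh Bst2 led at 18.9 CPM per kb, and Irf7 at 10.4, Ogfr at 8.34 and Sp100 at 7.97 followed without differing beyond the spread between the samples. Bst2 and Irf7 in IR+Gli1 did not differ beyond the spread between the samples, and the same holds for Sp100 and Trim25 in IR+GFP.

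The 2 IR+Gli1 samples were not alike. Across the 34 genes IR+Gli1 1+2 was higher than IR+Gli1 3 in 32, with a median ratio of 2.01, while the median over all genes was 1.02. The median ratio was 2.31 for effectors, 1.56 for signalling genes and 1.26 for sensors, and Slfn4 (5.11), Rsad2 (4.16) and Ifit2 (3.55) had the largest ratios. Without IR+Gli1 3 and IR+GFP 3, the libraries with more multiply aligned reads, each of these groups holds 1 sample. The 34 genes summed to 2446 CPM in IR+Gli1 1+2, against 238 CPM in IR+GFP 1+2, with TMM factors taken over all 10 samples.

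Several settings bear on the calls in IR+Gli1. In a fit restricted to IR+Gli1 and IR+GFP 0 of 34 passed by edgeR, where 1 of 13766 genes passed. All 34 had an unadjusted p under 0.05 in that fit, against 3229 of 13766 over all genes. TMM factors were 1.72 and 1.31 in IR+Gli1 and 0.865 to 0.994 elsewhere, and scaling by total counts moves the median of all genes by 0.77 (log2) and still calls 34 upward, with a median of 4.68. Under that scaling most genes tested were called higher, 9660 of 14300, with 9749 called in either direction. With TMM 1177 of 1993 genes called were higher.

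**Figure D3:**
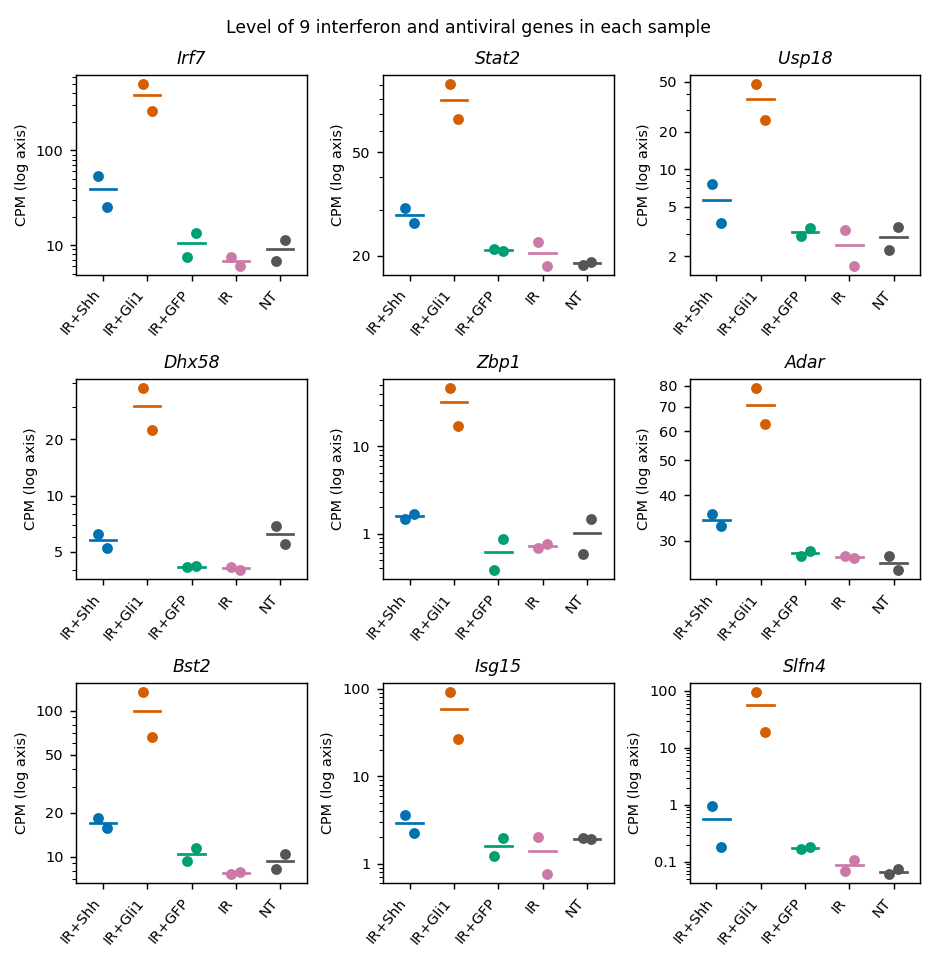
Level in CPM (log axis) of 3 signalling genes, 3 sensors and 3 effectors in each sample, with points for the samples and a line for the mean of each group. In all 9 genes both IR+Gli1 points lie above every other point, and in Irf7 both IR+Shh points lie above those of IR+GFP, IR and NT.

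In IR+Shh glands the same genes were mostly somewhat higher than in IR+GFP glands, and none passed the test. The genes summed to 428 and 341 CPM in IR+Shh, against 238 and 288 CPM in IR+GFP. The median log2 fold change was 0.77, with 31 of 34 above 0, where all genes had a median of 0.00. By edgeR 0 of 34 passed, as did 0.0% of all genes tested, and 8 of 34 had an unadjusted p under 0.05, against 872 of 14300 over all genes. In 25 of 34 genes both IR+Shh samples lay above both IR+GFP samples, which was so for 21.7% of all genes tested. The macrophage markers summed to 178 and 183 CPM in IR+Shh, against 99.7 and 143 CPM in IR+GFP, with a median log2 fold change of 0.74, and 6 of 10 had an unadjusted p under 0.05. The T and NK cell markers summed to 8.06 and 7.63 CPM, against 2.39 and 5.90 CPM, with a median of 0.76, and those of the granular convoluted tubule to 64039.5 and 73867 CPM, against 108180 and 96936 CPM, with a median of -0.66. By edgeR 0 of these markers passed, and their part in the values of the 34 genes was not tested. The same IR+GFP samples serve both comparisons, so the values of IR+Shh and IR+Gli1 over IR+GFP are not independent.

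Irf7 was at 53.5 and 25.3 CPM in IR+Shh, against 7.46 and 13.5 CPM in IR+GFP (log2 1.92 ± 0.54, edgeR adjusted p = 0.808). Sp100 had the lowest adjusted p, with 58.4 and 62.1 CPM in IR+Shh, against 35.5 and 36.9 CPM in IR+GFP (log2 0.73 ± 0.11, edgeR adjusted p = 0.330). Ifi44 had 4.07 and 2.18 CPM, against 0.938 and 1.29 CPM (log2 1.44 ± 0.54). In these 3 genes the groups did not overlap. Stat2 had 30.5 and 26.7 CPM in IR+Shh, against 21.3 and 20.8 CPM in IR+GFP, and Ifih1 27.6 and 21.9 CPM, against 15.3 and 18.2 CPM. Adar, at 35.6 and 32.9 CPM in IR+Shh, against 27.3 and 28.0 CPM in IR+GFP, also had an unadjusted p under 0.05, as had Apol9a and Xaf1. Among the effectors Isg15 had 3.64 and 2.21 CPM in IR+Shh, against 1.24 and 1.97 CPM in IR+GFP. Ifit1 had 5.90 and 3.61 CPM, against 1.19 and 3.08 CPM, and Bst2 had 18.6 and 15.7 CPM, against 9.38 and 11.6 CPM. Each of these effectors was higher in both IR+Shh samples, and none of them passed the test. Mx1, Eif2ak2 and Ogfr were the 3 genes with a log2 fold change below 0, at -0.05, -0.04 and -0.14.

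The count of calls in IR+Shh over IR+GFP moved with the fit, and each call was upward. DESeq2 called 1 of 34, where 32 of 14300 genes passed in either direction. A fit of the 2 groups alone called 1 of 32, where 24 of 13228 passed. The 15 separate libraries called 7 of 34, where 538 of 14121 passed. A fit without the filter on low counts called 15 of 34, where 435 of 22949 passed. Scaling by total counts moves the median of all genes by 0.14 (log2) and calls 0.

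Set directly against each other, IR+Shh glands were lower than IR+Gli1 glands in all 34 genes. By edgeR 33 fell, where 4.99% of all genes tested fell, and in all 34 both IR+Shh samples lay below both IR+Gli1 samples, which was so for 29.7% of all genes tested. The median log2 fold change was -3.01, against a median of -0.02 over all genes, and the medians were -1.86 for signalling genes, -1.24 for sensors and -3.53 for effectors. Slfn4 differed most, at 0.954 and 0.184 CPM in IR+Shh, against 95.6 and 18.7 CPM in IR+Gli1 (log2 -6.54 ± 1.02, edgeR adjusted p = 0.0224). Sp100 differed least, at 58.4 and 62.1 CPM, against 114 and 94.2 CPM (log2 -0.79 ± 0.11, edgeR adjusted p = 0.00831). Mx1, at 0.780 and 0.553 CPM in IR+Shh, against 22.7 and 6.75 CPM in IR+Gli1, was the 1 gene that did not pass (log2 -4.34 ± 1.01, edgeR adjusted p = 0.0505). In a fit of these 2 groups alone 0 of 34 genes passed by edgeR, where 9 of 13823 genes passed. All 34 had an unadjusted p under 0.05 in that fit, against 3334 of 13823 over all genes. All calls were lost when 1 IR+Shh sample was left out, whichever it was, which leaves 1 sample in that group. Scaling by total counts moves the median of all genes by -0.64 (log2) and calls 34 downward. Under it 8092 of 14300 genes tested were called, 84 of them higher, against 395 of 1109 called with TMM.

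Irradiation without transfer left no called change in these genes. In IR over NT 0 of 34 passed by edgeR, where 0.678% of all genes passed in either direction, and DESeq2 also called 0. At an unadjusted p under 0.05 there were 2 of 34, against 2504 of 14300 over all genes. The summed level was 252 and 226 CPM in IR, against 251 and 265 CPM in NT. The median log2 fold change was -0.27, and 15 of 34 genes were lower in both IR samples than in both NT samples, against 27.3% of all genes tested. The macrophage markers summed to 122 and 122.6 CPM in IR, against 175 and 146 CPM in NT, with a median log2 fold change of -0.39, and 5 of 10 had an unadjusted p under 0.05. The T and NK cell markers had a median of -0.74 and those of neutrophils and monocytes of -0.96. By edgeR 0 of these passed, and their part in the values of the 34 genes was not tested. Dhx58 had 4.15 and 4.0 CPM in IR, against 6.92 and 5.51 CPM in NT (log2 -0.60 ± 0.24, edgeR adjusted p = 0.244), and Rtp4 had 1.90 and 1.30 CPM, against 2.37 and 3.78 CPM (log2 -0.87 ± 0.38, edgeR adjusted p = 0.280). These were the genes with an unadjusted p under 0.05. Irf7 stood at 7.48 and 6.06 CPM in IR, against 6.76 and 11.2 CPM in NT, and the groups overlapped. Mx1 and Oas3 differed most between the NT samples, with 2.35 and 0.734 CPM in NT 2+3, against 0.303 and 0.152 CPM in NT 1, and NT 2+3 is the sample with sublingual markers. Without NT 2+3, 0 of 34 passed. Without the filter on low counts 7 of 34 passed, each downward, where 1242 of 22949 genes passed, 493 of them upward.

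Transfer of GFP also left no called change. In IR+GFP over IR 0 of 34 genes passed by edgeR, as did 0.0% of all genes, and DESeq2 called 0 of 34 as well. At an unadjusted p under 0.05 the count was 0 of 34, against 298 of 14300. The summed level was 238 and 288 CPM in IR+GFP, against 252 and 226 CPM in IR. The median log2 fold change was 0.20, and in 11 of 34 genes both IR+GFP samples were higher than both IR samples, against 16.9% of all genes tested. Irf7 had 7.46 and 13.5 CPM in IR+GFP, against 7.48 and 6.06 CPM in IR (log2 0.60 ± 0.56). Bst2 had 9.38 and 11.6 CPM, against 7.61 and 7.84 CPM (log2 0.43 ± 0.34).

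Interferon genes themselves were almost without counted reads. Of 21 listed ligands 17 were matched in the tables, and 14 of these had 0 reads in all 15 libraries. Reads with several alignments were not counted, so transcripts of ligand genes too alike to tell apart would be missed. Ifnb1, which encodes interferon beta, had 25, 18 and 1 reads in IR+Gli1 libraries 1, 2 and 3. In IR+Shh it had 1, 0 and 1 reads, in IR+GFP 0, 0 and 1, and elsewhere 0. Ifng, the type II interferon of T and NK cells, had 35, 26 and 8 reads in the IR+Gli1 libraries, against 1, 3 and 0 in IR+Shh, 0, 0 and 1 in IR+GFP and 0 elsewhere. Reads of both thus lay mostly in the near-identical libraries IR+Gli1 1 and 2, which count as 1 sample. Ifng was the 1 ligand that passed the count filter, and it did not pass the test in IR+Gli1 over IR+GFP (edgeR adjusted p = 0.0890).

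Of 10 genes of interferon receptors and their signalling, 5 rose and 1 fell in IR+Gli1 over IR+GFP, with a median log2 fold change of 0.41. Over all genes tested 8.23% rose and 5.71% fell. The receptor chain Ifnar2 had 18.4 and 16.7 CPM in IR+Gli1, against 9.89 and 11.9 CPM in IR+GFP (1.62-fold), and the interferon gamma receptor chains Ifngr1 and Ifngr2 rose 1.71-fold and 1.90-fold. Ifnar1 was at 23.0 and 22.9 CPM in IR+Gli1, against 25.4 and 23.1 CPM in IR+GFP (log2 -0.08 ± 0.13), and Tyk2 at 20.5 and 19.6 CPM, against 19.2 and 20.1 CPM (log2 0.03 ± 0.10). Jak1, at 84.3 and 92.4 CPM in IR+Gli1, against 110 and 116 CPM in IR+GFP, fell (log2 -0.36 ± 0.09, edgeR adjusted p = 0.0333), but with scaling by total counts it was called higher, at log2 0.42, and Ifnar1 and Tyk2 were called higher too, at 0.71 and 0.82. In IR+Shh over IR+GFP 0 of the 10 passed by edgeR. An unadjusted p under 0.05 was found for 1, against 872 of 14300 over all genes.

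Of 16 genes of nucleic acid sensing, 15 were tested, and 8 rose and 1 fell in IR+Gli1 over IR+GFP. The shares over all genes tested were 8.23% upward and 5.71% downward. Ifi204, a DNA sensor, changed most, with 47.9 and 15.4 CPM in IR+Gli1, against 1.92 and 1.72 CPM in IR+GFP (16.8-fold). Tlr7, a receptor for single-stranded RNA in endosomes, had 7.08 and 3.71 CPM, against 0.853 and 1.48 CPM (4.53-fold), and Tlr3, its counterpart for double-stranded RNA, had 38.0 and 34.5 CPM, against 19.8 and 19.9 CPM (1.83-fold). Samhd1, which depletes nucleotides, rose 2.92-fold. The 1 gene that fell, the adaptor Ticam1, was named after its value was seen: it was at log2 -0.55 and, with scaling by total counts, at 0.21 without passing. Trex1 had 0 reads in all libraries and was not tested. Of 11 genes of interferon feedback, 6 rose and 0 fell. Nlrc5, a regulator of antigen presentation genes, rose 3.80-fold to 45.8 and 31.2 CPM in IR+Gli1, against 9.72 and 10.5 CPM in IR+GFP. Trim30a rose 15.3-fold, the phosphatase Ptpn2 1.67-fold and Tnfaip3, an inhibitor of NF-kB, 4.07-fold. In IR+Shh against IR+Gli1 6 of these 11, 7 of the 15 sensing genes and 3 of the 10 receptor and signalling genes fell. Over all genes tested 4.99% fell there. In IR+Shh over IR+GFP, IR+GFP over IR and IR over NT 0 of these 36 genes passed by edgeR. At an unadjusted p under 0.05 the counts were 3, 0 and 3, against 872, 298 and 2504 of 14300 over all genes.

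**Figure D4:**
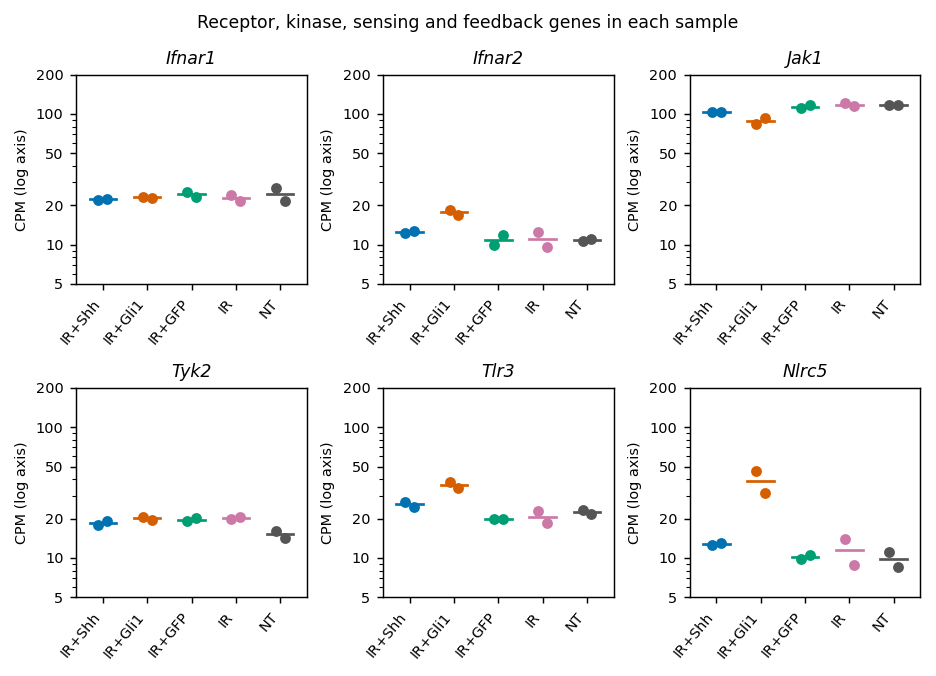
Level in CPM (log axis, the same range in each panel) of the receptor chains Ifnar1 and Ifnar2, the kinases Jak1 and Tyk2, the sensor Tlr3 and the feedback gene Nlrc5 in each sample, with a line for the mean of each group. Ifnar2, Tlr3 and Nlrc5 were higher in both IR+Gli1 samples than in any other sample, and Ifnar1 was at 21.4 to 27.1 CPM throughout.

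A further 38 interferon-stimulated genes outside the 34 were listed, and 37 were tested. Of these 31 rose and 0 fell in IR+Gli1 over IR+GFP, with a median log2 fold change of 2.19. Over all genes tested 8.23% rose and 5.71% fell in that comparison. Lgals3bp, a secreted glycoprotein, had 413 and 281 CPM in IR+Gli1, against 19.1 and 30.1 CPM in IR+GFP (14.1-fold). Uba7, the enzyme that activates Isg15 for joining to proteins, rose 5.68-fold, Parp12, an enzyme of ADP-ribosylation, 3.40-fold and Shisa5 3.37-fold. In IR+Shh over IR+GFP 0 of 37 passed, with a median of 0.47. At an unadjusted p under 0.05 there were 7, against 872 of 14300 over all genes. In IR+Shh against IR+Gli1 30 of 37 fell, where 4.99% of all genes tested fell. The comparisons of IR+Gli1 over IR+GFP and IR+Shh against IR+Gli1 share the IR+Gli1 samples.

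Markers of some immune cells, namely neutrophils and monocytes, T and NK cells, and macrophages, were higher in sum in IR+Gli1 than in IR+GFP. Over all genes tested 8.23% rose in that comparison. The 9 neutrophil and monocyte markers summed to 179 and 49.8 CPM in IR+Gli1, against 3.41 and 6.77 CPM in IR+GFP, and were at 11.2 and 7.89 CPM in IR+Shh. Of these 9, 5 were tested and 4 rose in IR+Gli1 (Csf3r, Ly6c2, Ccr2 and Plac8), while Ly6g, a defining marker of neutrophils, had 0 reads in all samples, and S100a8, Retnlg and Cxcr2 had 0 reads in IR+GFP, IR and NT. Ly6c2, a marker of inflammatory monocytes, had 66.7 and 15.7 CPM in IR+Gli1, against 0.171 and 0.308 CPM in IR+GFP. As in the effectors, the sum was higher in IR+Gli1 1+2 than in IR+Gli1 3. The 11 markers of T and NK cells summed to 53.8 and 24.2 CPM in IR+Gli1, against 2.39 and 5.90 CPM in IR+GFP, and 4 of 8 tested rose. The 10 macrophage markers summed to 253 and 271 CPM, against 99.7 and 143 CPM, and 5 of 10 rose, among them Siglec1, itself an interferon-stimulated gene. Mrc1 and Mertk had a log2 fold change below 0, and the macrophage sum was higher in IR+Gli1 3 than in IR+Gli1 1+2. Of markers of plasmacytoid dendritic cells, known as strong producers of interferon, 0 of 4 tested passed by edgeR, with 1 at an unadjusted p under 0.05. This was Siglech, a surface receptor of these cells, at 0.108 and 0.395 CPM in IR+Gli1, against 0.597 and 1.05 CPM in IR+GFP (log2 -1.55 ± 0.61, edgeR adjusted p = 0.123). Runx2, which is not specific to these cells, made up most of the list's sum, at 54.3 and 67.0 CPM in IR+Gli1, against 54.3 and 58.7 CPM in IR+GFP. B cell and plasma cell markers were at most 3.15 CPM in sum in any sample. The part of immune cells in the change of the 34 genes was not tested.

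Of 7 markers of the granular convoluted tubule, 5 fell in IR+Gli1 over IR+GFP, where 5.71% of all genes tested fell. These markers, such as Klk1 and Egf, which define the male mouse submandibular gland, summed to 15760 and 38757 CPM in IR+Gli1, against 108180 and 96936 CPM in IR+GFP, and the 5 also fell with scaling by total counts. The 9 acinar markers summed to 13418 and 45676 CPM in IR+Gli1, against 33291 and 55526 CPM in IR+GFP, so the groups overlapped. Of 8 tested 2 fell, Bhlha15 and Slc12a2, which with scaling by total counts were at log2 -0.08 and 0.04 without passing. Endothelial markers summed to 42.5 and 34.6 CPM in IR+Gli1, against 20.2 and 28.7 CPM in IR+GFP, and fibroblast markers to 147 and 196 CPM, against 162 and 214 CPM, with 1 of 5 and 0 of 6 higher. The part of the gland's cell makeup in the change of the 34 genes was not tested.

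**Figure D5:**
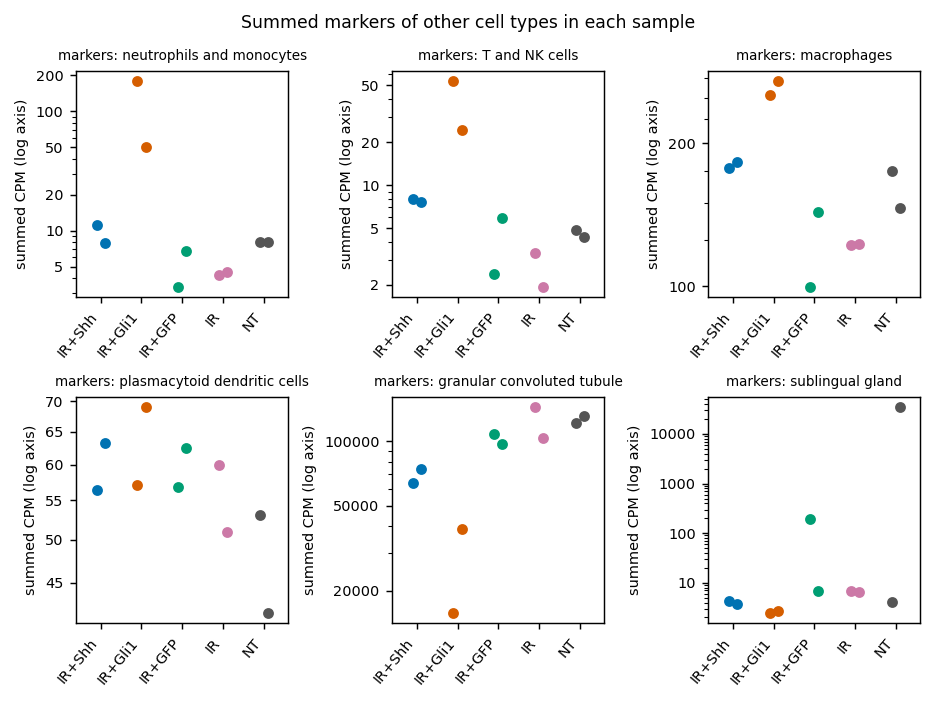
Summed level in CPM (log axis, with a range of its own in each panel) of markers of other cell types in each sample. Markers of neutrophils and monocytes and of T and NK cells were highest in the IR+Gli1 samples, those of the granular convoluted tubule were lowest there, and those of the sublingual gland reached 34610 CPM in NT 2+3.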

How the data were processed

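The authors deposited raw counts of reads per Ensembl gene for each library. The submitters' processing notes name HTSeq (0.10.0), TopHat2 (2.0.13), Bowtie (0.12.2), DESeq2, and the builds mm10 and GRCm38; the strand setting and the annotation release are not given in the sources used here. Rows naming no gene (6.98% to 13.9% of reads) were left out. Symbols and coordinates came from GENCODE vM21, promoter windows from RefSeq. Libraries of a group whose mean chi-square per gene was under 1 were combined by the rounded mean of their counts, which gave 10 samples. Genes kept by filterByExpr were scaled with TMM, and 1 model over all 5 groups was fitted with edgeR (4.0.16, under R 4.3.3), using robust quasi-likelihood tests, two-sided, with Benjamini-Hochberg adjustment over 14300 genes and a threshold of 0.05. The common biological coefficient of variation was 0.191, with 5 residual degrees of freedom and a prior count of 2. The analysis was tested on simulated data.

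The 34 genes and all lists were chosen with earlier results of these data known. Named outside the 34 were up to 4 genes of each pathway list by smallest p over the 5 comparisons, fixed receptor, kinase and ligand genes, and exceptions said to be chosen after their values were seen; 1 gene that the rule names is not reported here. Alternatives were DESeq2 size factors, upper-quartile and total-count scaling, other count filters, DESeq2 1.42.0, limma-voom (limma 3.58.1), the compared groups alone, 15 separate libraries with and without the replicate number as a block, a block for sample 3 of IR+Gli1 and IR+GFP, the deeper library of each pair, protein-coding genes alone, leaving out samples, and IR and IR+GFP together as control.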

Additional observations from a re-analysis of the deposited data

How the results depend on the processing

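Among the 34 genes, no called direction was reversed under any alternative run. For IR+Gli1 over IR+GFP, 31 to 34 genes passed under other scalings, filters and tools, 0 in a fit of the 2 groups alone, and 15 to 33 when a sample was left out, with 15 without IR+GFP 1+2 and 29 without IR+GFP 3. For IR+Shh over IR+Gli1, 30 to 34 passed under other scalings, filters and tools, and 0 in a fit of the 2 groups alone. All calls of that comparison were lost when 1 IR+Shh sample was left out, whichever it was. Most calls stayed when 1 IR+Gli1 sample was left out. For IR+Shh over IR+GFP, 15 passed with no filter on low counts, 1 with DESeq2, 1 in a fit of the 2 groups alone, 7 with 15 separate libraries and 6 with these and a replicate block. For IR over NT, 7 passed with no filter and 2 with 15 separate libraries, with or without the replicate block. For IR+GFP over IR, 1 passed with no filter, where 210 of 22949 genes passed. With IR and IR+GFP together as control, chosen after seeing the data, 34 passed for IR+Gli1 and 0 for IR+Shh. For IR+Shh 17 had an unadjusted p under 0.05, against 1002 of 14300 over all genes. Leaving out samples changed no count for IR over NT, IR+GFP over IR and IR+Shh over IR+GFP, at 0 throughout. The fits of 2 groups and those without a sample hold fewer samples, and otherwise the cause was not tested. Over all genes, IR+Gli1 over IR+GFP called 1993 genes in the fit reported, 9749 with total-count scaling (9660 higher, against 1177), 6518 with 15 separate libraries and 6495 with the replicate block; the range without 1 sample was 91 to 2987. IR+Shh over IR+Gli1 called 1109, against 8092 with total-count scaling, 2639 with no filter, 6065 with 15 separate libraries, and 0 to 2286 without 1 sample. IR over NT called 97, against 479 with DESeq2, 1242 with no filter, 4154 with 15 separate libraries, and 9 to 538 without 1 sample. IR+Shh over IR+GFP called 0, against 32 of 14300 with DESeq2 and 24 of 13228 in a fit of the 2 groups alone. It called 435 of 22949 with no filter, 538 of 14121 with 15 separate libraries and 433 with the replicate block. Deviations of same-numbered libraries were correlated at 0.479 to 0.510 in all 3 pairs of IR+Gli1 with IR+GFP and at most at 0.0903 in the 27 other pairs. Since libraries 1 and 2 count as 1 sample in both groups, the 3 pairs hold 1 contrast, of sample 1+2 with sample 3, and the numbers were not taken to pair samples. With a replicate block for sample 3 of these groups, chosen after seeing the data, 33 of 34 genes passed, all but Mx1, and 2412 over all genes.

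With 2 samples a group, differences below several fold in genes of under 1 CPM, such as Mx1 and Slfn4 in IR+Shh, rest on few reads. A sample left alone in its group is assumed to vary like the others.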

Other observations

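The genes differed in how they varied between samples of 1 group. Mx1 was 7.74-fold and Oas3 4.84-fold higher in NT 2+3 than in NT 1, while the median ratio over the 34 genes was 1.19. In IR+Shh, Slfn4 was 5.17-fold and Oas1a 3.36-fold higher in sample 1+3 than in sample 2, with a median of 1.27 and 31 of 34 genes higher. In IR+GFP, sample 3 was higher than sample 1+2 in 31 of 34 genes, with a median of 1.23. The median ratios of the sensors were 1.15 in IR+Shh, 1.17 in IR+GFP and 1.04 in IR, against 1.57, 1.31 and 1.5 for the effectors in the same order. As shares of all gene reads, with no TMM factor, the 34 genes took 0.0403% and 0.0339% in IR+Shh, 0.420% and 0.176% in IR+Gli1, 0.0206% and 0.0255% in IR+GFP, 0.0219% and 0.0201% in IR, and 0.0221% and 0.0241% in NT.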
